A study of Mus musculus with 14 samples.

Results

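A set of 10 genes known from early blood progenitors and from T-ALL, an acute leukaemia of T-cell precursors, was followed tumour by tumour in 14 mouse thymic lymphomas: Lmo2, Lyl1, Tal1, Hhex, Mef2c, Hoxa9, Hoxa10, Meis1, Kit and Sox4. They are 10 of 15803 genes measured on exon arrays, and they were read from 108 of 194293 probe sets, small groups of probes that mostly cover an exon. A probe set was taken where the platform annotation gave 1 of these genes and no other, and the level of a gene is the mean of the log2 values of its probe sets. The tumours came from 2 models, with 7 tumours labelled Vav-SB and 7 labelled CD4-SB. In both models Sleeping Beauty transposons move within the genome and mutate genes at their insertion sites, and the names give the gene whose promoter sets where this takes place. Vav1 is active in blood cells from the stem cell on, while Cd4 is switched on in thymocytes, the developing T cells of the thymus. According to the series title the comparison asks how the cell of origin shapes the genes that are selected. All samples are whole tumours; no normal thymus was analysed here, and the labels used here give no age and leave unsaid whether the tumours are from separate animals. The 7 Vav-SB tumours carry 7 different first numbers in their titles and the 7 CD4-SB tumours carry 4, with CD4-SB tumours 1 and 2 sharing one and tumours 5, 6 and 7 another. The p-values therefore measure the spread between these tumours, and in such bulk tissue fewer cells of a type and less RNA per cell cannot be told apart.

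LMO2 is a bridging protein without DNA binding of its own; it joins the basic helix-loop-helix factors TAL1 or LYL1, their E protein partners, LDB1 and GATA factors in a complex that sits on DNA of stem cells and red cell precursors. Thymocytes silence the genes of LMO2, TAL1 and LYL1 as they commit to the T lineage. The return of such a gene in a thymocyte is a known route to T-ALL. HHEX is a homeobox protein known as a target of LMO2 in mouse thymocytes. HOXA9, HOXA10 and their cofactor MEIS1 keep stem and progenitor cells from maturing, MEF2C is raised in human T-ALL of an immature type and works normally in B and myeloid cells, KIT is the receptor of stem cell factor on progenitors, and SOX4 is a high-mobility-group factor of early lymphocytes.

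Promoter sequence from RefSeq (GRCm38.p6) was found for 9 of the 10 genes, and 4 are printed as examples. Sox4 and Meis1 differed between the models, and Hhex and Lyl1 had their highest Vav-SB level in the same tumour. Mef2c, also highest there among Vav-SB tumours, and Kit, high in a single Vav-SB tumour, are not printed. Each run gives the 250 bases before the transcription start, 5′ to 3′ on the strand of the gene, with capitals marking each E-box, CANNTG, the core that TAL1 and LYL1 bind with E proteins.
Sox4 (chr13:28953700-28953949, minus strand): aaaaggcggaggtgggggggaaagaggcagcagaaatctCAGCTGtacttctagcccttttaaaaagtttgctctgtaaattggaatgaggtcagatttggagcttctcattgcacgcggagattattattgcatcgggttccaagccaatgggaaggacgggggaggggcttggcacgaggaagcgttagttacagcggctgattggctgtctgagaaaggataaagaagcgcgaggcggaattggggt
Meis1 (chr11:19018970-19019219, minus strand): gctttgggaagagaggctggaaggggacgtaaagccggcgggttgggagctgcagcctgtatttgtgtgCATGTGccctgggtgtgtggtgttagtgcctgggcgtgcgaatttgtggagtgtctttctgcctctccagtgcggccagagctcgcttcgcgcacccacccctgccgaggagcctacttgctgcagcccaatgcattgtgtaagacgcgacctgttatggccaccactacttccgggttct
Hhex (chr19:37434591-37434840, plus strand): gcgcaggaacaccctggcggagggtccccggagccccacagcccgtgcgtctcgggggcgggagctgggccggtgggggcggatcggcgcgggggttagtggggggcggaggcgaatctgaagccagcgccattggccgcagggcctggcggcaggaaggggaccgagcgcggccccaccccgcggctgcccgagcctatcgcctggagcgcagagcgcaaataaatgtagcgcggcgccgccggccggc
Lyl1 (chr8:84701207-84701456, plus strand): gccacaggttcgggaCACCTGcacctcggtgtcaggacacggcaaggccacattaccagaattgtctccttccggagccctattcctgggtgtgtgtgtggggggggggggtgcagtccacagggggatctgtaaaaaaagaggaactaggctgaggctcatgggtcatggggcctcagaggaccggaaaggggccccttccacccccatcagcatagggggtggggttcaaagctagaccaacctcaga
The Sox4, Meis1 and Lyl1 windows hold 1 E-box each and the Hhex window holds 0, while 66.2% of all 32851 promoter windows of this length hold at least 1. The GATA motif AGATAA, read on both strands, lies in 9.99% of all windows and the MEIS motif TGACAG in 15.9%, and neither is in these 4. These matches describe letters only and show no binding.

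The array values are on the log2 scale, so a difference of 1 is a factor of 2 in signal. Levels are compared for the same gene between tumours and not between genes, since probe sets differ in brightness. Column medians lay between 7.46 and 7.50, and the median of all gene levels was 7.20. The 7 measured T-lineage markers averaged 10.71 to 11.14 in Vav-SB and 9.78 to 10.75 in CD4-SB tumours, and 2 of them, Cd3g and Cd2, rose and 0 fell in Vav-SB. Genes of macrophages and monocytes were measured alongside, because several of the 10 genes are active in such cells: 11 markers averaged 7.91 to 8.84 in Vav-SB and 8.86 to 9.67 in CD4-SB tumours, and 0 of them rose and 6 fell in Vav-SB. The 7 B-lineage markers spanned 6.17 to 6.83 in Vav-SB and 6.25 to 8.23 in CD4-SB, and the 8 stromal markers 7.30 to 8.25 and 7.86 to 9.50. Of the 8 dendritic markers 0 rose and 1 fell, of the 8 stromal markers 0 and 2, of the 8 endothelial markers 1 and 0, and of the 4 measured thymic epithelial markers 0 and 1. No marker passed among 7 B-lineage, 6 mast and 8 erythroid and megakaryocyte genes, of which 4, 0 and 2 had an unadjusted p under 0.05 in limma. Over all genes 7.28% rose and 7.18% fell in Vav-SB at the threshold used for these counts, an adjusted p under 0.05.

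**Figure D1:**
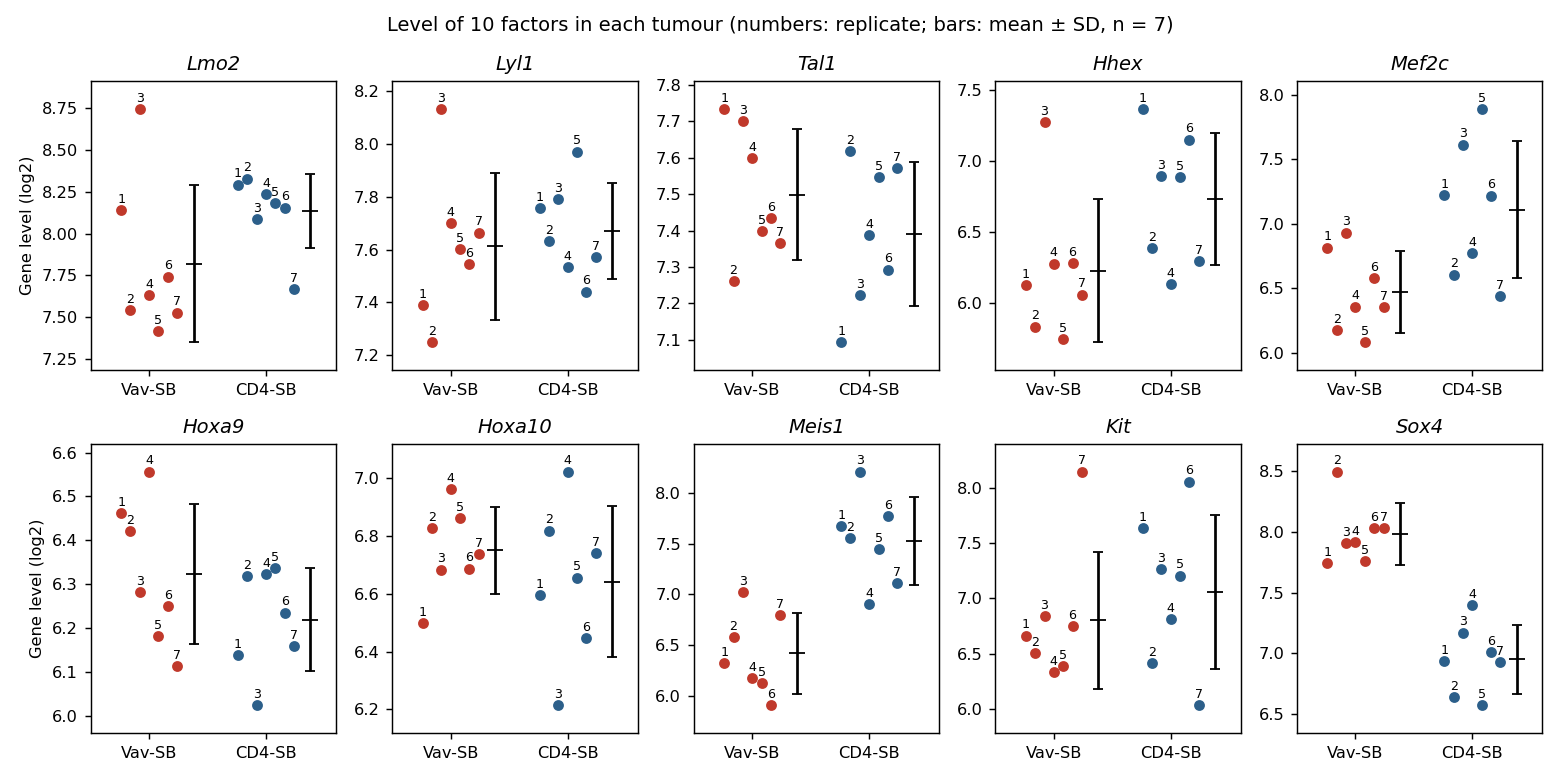
Gene level on the log2 scale (y axis) of each of the 10 genes in every tumour, Vav-SB left and CD4-SB right, with the replicate number above each point and the mean ± SD of 7 tumours as a bar; each panel has its own y axis. Sox4 separates the models without overlap, Meis1 overlaps by 1 tumour on each side, and single Vav-SB tumours stand high for Lmo2, Lyl1, Hhex and Kit.

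Sox4 was the only one of the 10 genes whose models did not overlap. It ran from 7.74 over a median of 7.91 to 8.50 in Vav-SB tumours, against 6.57, 6.94 and 7.39 as the lowest, median and highest level in CD4-SB tumours. All 7 Vav-SB tumours thus lay above all 7 CD4-SB tumours, a separation that 4.04% of all genes show. Sox4 rose 2.05-fold in Vav-SB (7.98 ± 0.25 against 6.95 ± 0.29, SD, n = 7 each; difference 1.03 ± 0.14 SE, adjusted p = 0.000286). All 10 of its probe sets were higher in Vav-SB, by 0.34 to 1.82 on the log2 scale, and 7 of them passed the threshold on their own. Vav-SB tumour 2 stood apart on the high side at 8.50, with the other 6 Vav-SB tumours at or below 8.03. In that tumour 9 of the 10 probe sets lay above the mean of the other 6 tumours, by a median of 0.81. Without it the difference was 0.95 (adjusted p = 0.00047). With the macrophage and monocyte markers as a covariate the difference stayed at 1.03, at an adjusted p of 0.0724, in a fit where 132 genes passed. Sox4 passed with the markers of macrophages, dendritic, B, endothelial and stromal cells together (1.07, adjusted p = 0.0163). It also passed with B-lineage markers alone (0.99, adjusted p = 0.00401) and with stromal markers alone (1.04, adjusted p = 0.00858).

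Meis1 differed in the opposite direction and by a similar amount. Its lowest, median and highest levels were 5.91, 6.32 and 7.02 in Vav-SB tumours, against 6.90, 7.55 and 8.21 in CD4-SB tumours. Only Vav-SB tumour 3 and CD4-SB tumour 4 overlapped: 6 of 7 Vav-SB tumours lay below every CD4-SB tumour, and 6 of 7 CD4-SB tumours above every Vav-SB tumour. Meis1 fell 2.15-fold in Vav-SB (6.42 ± 0.40 against 7.52 ± 0.43, difference -1.10 ± 0.21 SE, adjusted p = 0.00295). The difference ran through most of the gene, since all 15 probe sets were lower in Vav-SB and 11 passed, with single differences from -2.20 to -0.064. In CD4-SB tumour 3, the highest of all 14, 11 of 15 probe sets were the highest of all 14 tumours. The call ended with the markers of macrophages, dendritic, B, endothelial and stromal cells as a covariate (-0.76, adjusted p = 0.169), with macrophage and monocyte markers alone (-0.83, adjusted p = 0.326) and with stromal markers alone (-1.04, adjusted p = 0.0621). The call held with B-lineage markers alone (-0.86, adjusted p = 0.0378). The mean of the macrophage and monocyte markers separated the models narrowly (highest Vav-SB value 8.84, lowest CD4-SB value 8.86), while 10 of the 11 single markers overlapped.

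Sox4 and Meis1 were 2 of 10 genes past an adjusted p of 0.05, 1 in each direction, against 14.5% of all 15803 genes (7.28% higher and 7.18% lower in Vav-SB). Of the 108 probe sets 20 passed, 7 higher and 13 lower in Vav-SB, against 8.52% of all probe sets with 1 gene symbol (4.53% higher and 3.99% lower). Of these 20, 18 belonged to Meis1 and Sox4, and the other 2 were 1 of Hhex and 1 of Mef2c, both lower in Vav-SB. The count of 2 genes went to 5 without Vav-SB tumour 3, where Lmo2, Hhex and Mef2c passed too, all lower in Vav-SB.

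**Figure D2:**
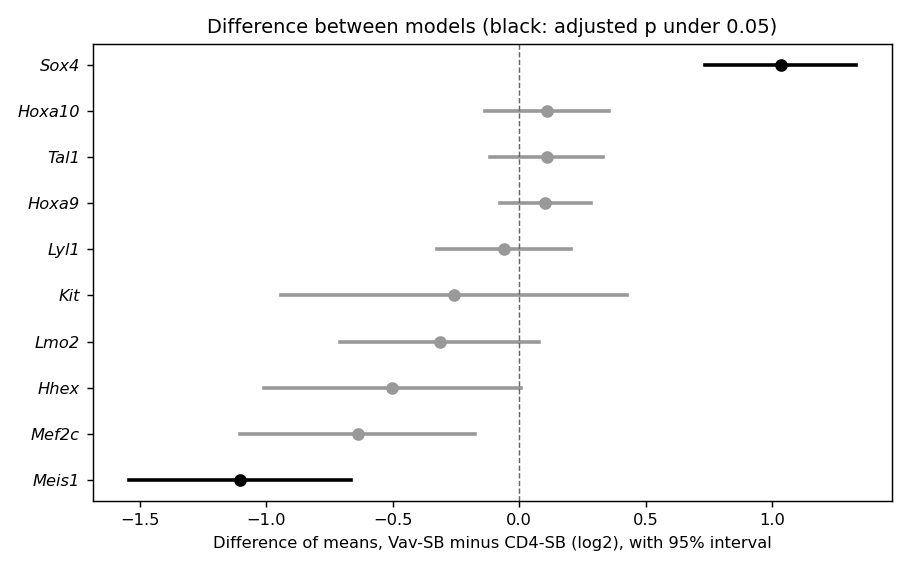
Difference of mean gene level between the models, Vav-SB minus CD4-SB on the log2 scale (x axis), for each of the 10 genes (y axis), with 95% intervals of the limma fit that are not adjusted for the number of genes. Sox4 at 1.03 and Meis1 at -1.10 are drawn in black as past the adjusted threshold; the interval of Mef2c, -1.10 to -0.17, leaves out 0 but its adjusted p was 0.0641.

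The MEIS1 partners Hoxa9 and Hoxa10 did not pass the threshold. Hoxa9 ran from 6.11 over 6.28 to 6.56 in Vav-SB tumours and from 6.03 over 6.24 to 6.34 in CD4-SB tumours. Hoxa10 ran from 6.50 over 6.74 to 6.96 in Vav-SB and from 6.22 over 6.66 to 7.02 in CD4-SB. Both were flat, with all tumours within a range of less than 1, and the models overlapped. Their differences were 0.10 (interval -0.08 to 0.28, adjusted p = 0.48) and 0.11 (interval -0.14 to 0.35, adjusted p = 0.598). Vav-SB tumour 4 was the highest Vav-SB tumour for both, at 6.56 and 6.96. None of their 7 and 7 probe sets passed, and 1 of each had an unadjusted p under 0.05 in limma. With only probe sets at or above the median brightness Hoxa10 was at 0.39 (adjusted p = 0.0319), which is the value of 1 probe set alone. That probe set did not pass in the limma fit of single probe sets (adjusted p = 0.0889). A median over the Hoxa10 probe sets gave -0.089.

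Of 16 further measured Hox genes and homeobox cofactors, 1 rose, 1 fell and 14 did not pass, a share of calls near the 14.5% over all genes, with a median difference of -0.070 against 0.00 over all genes. Pbx2, a cofactor of HOX and MEIS proteins, rose 1.35-fold (adjusted p = 0.0382). Meis2, the closest relative of Meis1, fell 2.23-fold in Vav-SB (6.05 ± 0.54 against 7.21 ± 0.62, adjusted p = 0.0143). As with Meis1, Vav-SB tumour 3 had the highest Meis2 level of its model, at 7.08, and CD4-SB tumour 3 that of the other, at 8.31. Among 10 measured homeobox genes that T-ALL can switch on out of place, including Tlx1, Tlx3 and Nkx2-1, 1 rose and 0 fell, with a median difference of 0.092. It was Lhx2, which rose 1.41-fold (adjusted p = 0.0272). Tlx1 lay between 6.51 and 7.00 in Vav-SB tumours and between 6.27 and 6.97 in CD4-SB tumours, and Tlx3 between 7.00 and 7.19 and between 6.67 and 7.26, so no tumour stood out by more than 1 on the log2 scale.

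Lmo2 was highest in a single Vav-SB tumour. Its lowest, median and highest levels were 7.42, 7.63 and 8.74 in Vav-SB tumours, against 7.67, 8.18 and 8.33 in CD4-SB tumours. Vav-SB tumour 3 at 8.74 was the highest of all 14, and Vav-SB tumour 1 followed among its model at 8.14. In all, 4 Vav-SB tumours lay below every CD4-SB tumour. The mean difference was -0.31 (interval -0.71 to 0.08, adjusted p = 0.294), and without Vav-SB tumour 3 it was -0.47 (adjusted p = 0.0273). In tumour 3, 6 of the 8 Lmo2 probe sets were the highest of the Vav-SB tumours and 5 the highest of all 14; against the mean of the other 6 Vav-SB tumours they deviated by -0.15 to 2.23, and 4 of 8 by more than 1. In CD4-SB, tumour 7 stood apart on the low side at 7.67, with the other 6 between 8.08 and 8.33. That is 1 low outlier among 10 genes, where 2.04% of all genes have a low CD4-SB tumour apart.

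Lyl1, the helix-loop-helix partner of LMO2, had its highest level in the same tumour. It ran from 7.25 over 7.60 to 8.13 in Vav-SB tumours and from 7.44 over 7.63 to 7.97 in CD4-SB tumours. Vav-SB tumour 3 at 8.13 was the highest of all 14, Vav-SB tumours 2 and 1 at 7.25 and 7.39 were the lowest, and the others overlapped (difference -0.059, interval -0.32 to 0.21, adjusted p = 0.812). The high level in tumour 3 was uneven along the gene: 4 of 8 probe sets were the highest of the Vav-SB tumours, 2 exceeded the mean of the other 6 by more than 1, and deviations ran from -0.16 to 2.02. Tal1, the relative of Lyl1 whose activation defines a large class of human T-ALL, ran from 7.26 over 7.43 to 7.73 in Vav-SB and from 7.09 over 7.39 to 7.62 in CD4-SB. No tumour stood apart for Tal1, with a difference of 0.11 (interval -0.11 to 0.33, adjusted p = 0.561). None of the 8 Lmo2, 8 Lyl1 and 10 Tal1 probe sets passed between the models, and 0, 2 and 0 had an unadjusted p under 0.05 in limma.

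Hhex, the homeobox target of LMO2, stood apart in Vav-SB tumour 3, which Lmo2 and Lyl1 did not by Dixon's ratio of gap to range (0.651 for Hhex, 0.456 for Lmo2 and 0.488 for Lyl1). Its lowest, median and highest levels were 5.75, 6.13 and 7.27 in Vav-SB tumours, against 6.13, 6.88 and 7.36 in CD4-SB tumours. Tumour 3 was at 7.27 while the other 6 Vav-SB tumours did not exceed 6.28, and all 4 Hhex probe sets were the highest of their model there, by 0.84 to 2.16 over the mean of the other 6. Of these 4 probe sets, 1 exceeded that mean by more than 1, and 1 was the highest of all 14 tumours. With a median over its probe sets Hhex no longer had a tumour apart on the high side. Across the models the difference was -0.50 (interval -1.01 to 0.01, adjusted p = 0.188). It passed without Vav-SB tumour 3 (-0.68, adjusted p = 0.0312) and with array weights (-0.66, adjusted p = 0.0451), and it turned to 0.37 with the macrophage and monocyte markers as a covariate (adjusted p = 0.639).

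**Figure D3:**
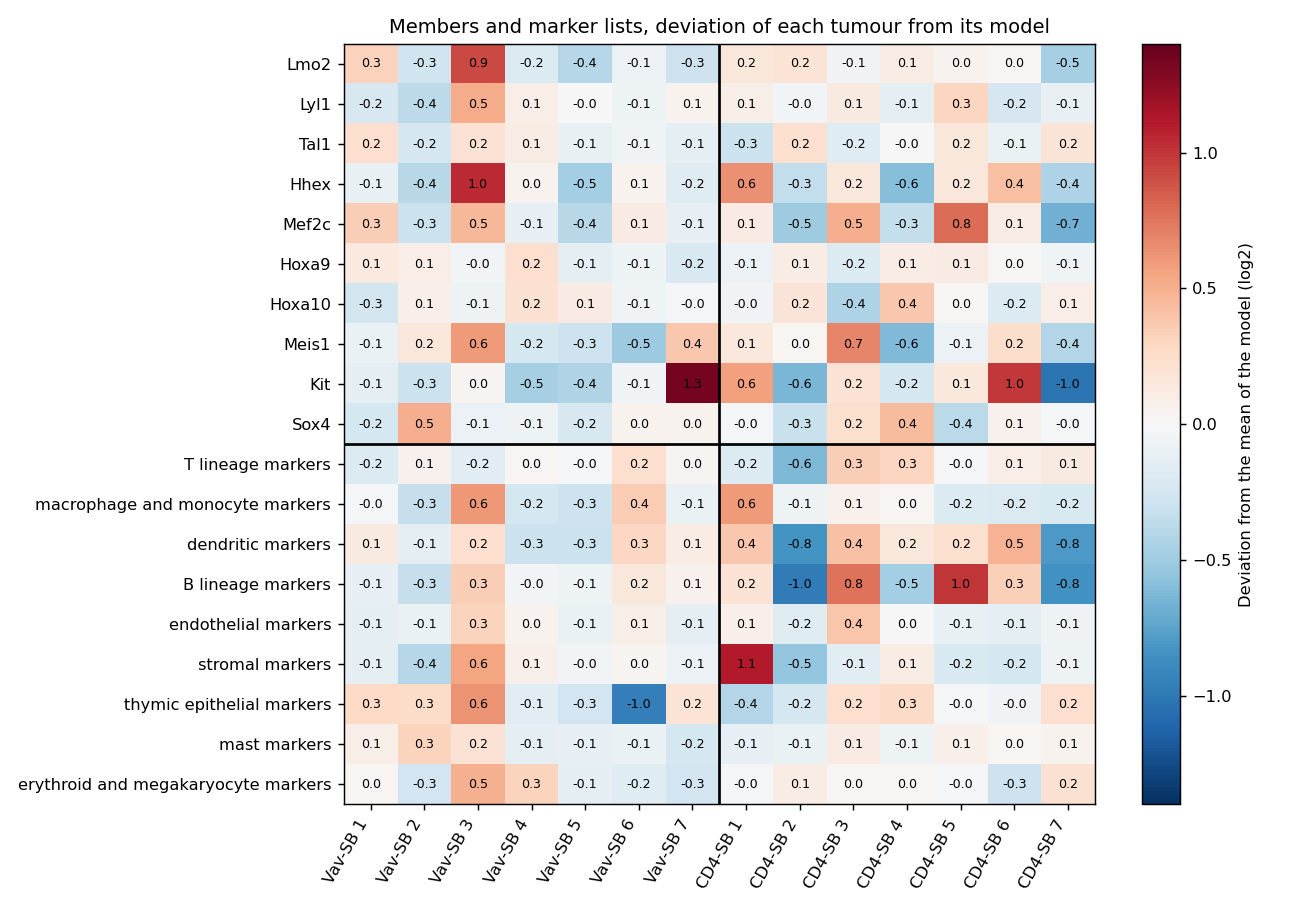
Deviation of each tumour (columns, Vav-SB left, CD4-SB right) from the mean of its model on the log2 scale, for the 10 genes (upper rows) and for the mean level of 9 lists of cell type markers (lower rows); the colour bar gives the same scale. Vav-SB tumour 3 is the highest of its model for Lmo2, Lyl1, Hhex, Mef2c and Meis1 and for 6 of the 9 marker lists.

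Vav-SB tumour 3 was the highest of its model for 5 of the 10 genes, Lmo2, Lyl1, Hhex, Mef2c and Meis1, whereas it was the highest for 18.5% of all genes. It was the lowest for 0 of the 10 and for 26.1% of all genes. Markers of other cells were high in it too: it led the Vav-SB tumours in 6 of 9 marker lists, and in 7 of 11 macrophage and monocyte markers, 5 of 8 endothelial, 5 of 8 erythroid and megakaryocyte, 4 of 8 stromal and 2 of 7 B-lineage markers. Its macrophage and monocyte level of 8.84 was below the lowest CD4-SB value, 8.86, while its Lmo2 and Lyl1 levels of 8.74 and 8.13 were above the highest CD4-SB values, 8.33 and 7.97. Its endothelial level of 7.47 was below the 7.50 of CD4-SB tumour 3, and its erythroid and megakaryocyte level of 7.42 was above the highest CD4-SB value, 7.04. The part of these cells in the levels of tumour 3 was not tested. Among 17 other early progenitor genes measured, only Cd34 and Cebpa stood apart on the high side in the same tumour. The surface marker Cd34 was at 7.75 (other 6 Vav-SB tumours 6.70 to 7.00) and the myeloid factor Cebpa at 8.94 (8.43 to 8.58). Stat5b, a signal transducer of cytokine receptors, stood apart there as well, at 10.66 against 8.77 to 9.51 in the others. Each of these genes was higher still in a CD4-SB tumour. Cd34 was at 7.91 and Cebpa at 9.20 in CD4-SB tumour 3, and Stat5b was at 10.755 in CD4-SB tumour 5. The mean of the 17 early progenitor genes was highest in Vav-SB tumour 7, at 7.563 against 7.548 in tumour 3. One of them, Igf2bp3, was lowest of its model in tumour 3, at 6.13. Over all genes, 1.83% stood apart on the high side in Vav-SB tumour 3.

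Mef2c had a lower mean in Vav-SB and a wider spread in CD4-SB (6.47 ± 0.32 against 7.11 ± 0.53). Its lowest, median and highest levels were 6.08, 6.36 and 6.93 in Vav-SB tumours, against 6.44, 7.22 and 7.89 in CD4-SB tumours. Of the CD4-SB tumours, 4 lay above every Vav-SB tumour and the other 3 overlapped with them. All 17 probe sets were lower in Vav-SB, with differences from -1.57 to -0.080, but 1 passed, and the gene itself did not (difference -0.64, interval -1.10 to -0.17, adjusted p = 0.0641). Its call changed when tumours with a shared title number were reduced to 1 (-0.90, adjusted p = 0.0192). It also passed with array weights (-0.75, adjusted p = 0.0231) and with the title number as a random block (-0.64, adjusted p = 0.0377), where the consensus correlation was -0.16. Without any 1 of 3 tumours it passed too: CD4-SB 2 (0.0421), CD4-SB 7 (0.0254) or Vav-SB 3 (0.0445). These were 6 of the settings run, while 18 kept the call as it was and 1 reversed the sign. With a tumour left out the adjusted p reached 0.13, and with a median over probe sets it was 0.154. Within CD4-SB the Mef2c levels ran in nearly the same order as those of B-lineage markers, whose part in the difference was not tested. In the CD4-SB tumours 5, 3, 6, 1, 4, 7 and 2 the B-lineage markers averaged 8.23, 7.99, 7.55, 7.42, 6.75, 6.37 and 6.25, and Mef2c was at 7.89, 7.61, 7.22, 7.22, 6.77, 6.44 and 6.60 in that order. The difference of Mef2c was smaller with each marker covariate that was fitted: -0.13 with B-lineage markers (adjusted p = 0.627), -0.20 with macrophage and monocyte markers (0.837), -0.48 with stromal markers (0.412) and 0.023 with the markers of 5 cell types together (0.964). Blnk, a B-cell signalling adaptor and 1 of the 7 markers, was the gene whose deviations from the model mean were most like those of Mef2c over the 14 tumours, with a Pearson r of 0.94.

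**Figure D4:**
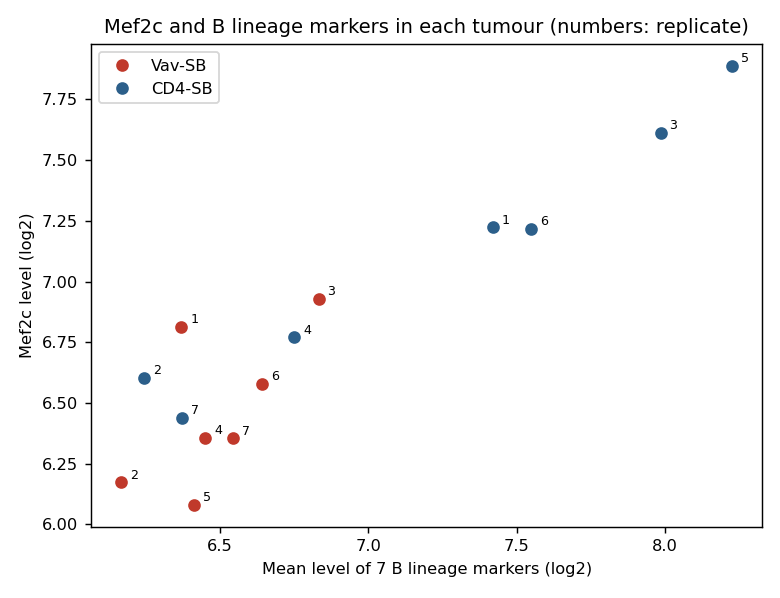
Mef2c level (y axis, log2) against the mean level of 7 B-lineage markers (x axis, log2) in each tumour, with replicate numbers beside the points. CD4-SB tumours 5 and 3 lie at the top right with Mef2c at 7.89 and 7.61, and CD4-SB tumours 2 and 7 lie among the Vav-SB tumours.

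Mef2c relatives and the class II histone deacetylases that MEF2 proteins recruit were measured together with other Sox genes, 12 in all. Of these 3 rose, 2 fell and 7 did not pass, with a median difference of 0.21; over all genes 14.5% passed and 4.04% did not overlap between the models. Hdac7, a deacetylase that restrains MEF2 in thymocytes, rose 2.18-fold without overlap (8.78 to 9.27 against 7.66 to 8.16, adjusted p = 1.18e-05). Hdac4 rose 1.43-fold (adjusted p = 0.00394) and Sox13, a factor of gamma-delta T cells, 1.48-fold (adjusted p = 0.00269), also without overlap. Hdac9 fell 2.19-fold in Vav-SB (adjusted p = 0.041).

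Kit was high in a single Vav-SB tumour and spread widely in CD4-SB. Its lowest, median and highest levels were 6.34, 6.66 and 8.14 in Vav-SB tumours, against 6.04, 7.21 and 8.05 in CD4-SB tumours. Vav-SB tumour 7 was the highest of all 14 and stood apart, with the other 6 Vav-SB tumours at or below 6.84. Among CD4-SB tumours none stood apart, with tumour 6 at 8.05, tumour 1 at 7.64 and tumour 7 lowest at 6.04. CD4-SB tumours 5, 6 and 7 carry the same first number in their titles, and their Kit levels of 7.21, 8.05 and 6.04 include both ends of that model. The mean difference was -0.26 (interval -0.94 to 0.43, adjusted p = 0.666), and without Vav-SB tumour 7 it was -0.48 (adjusted p = 0.29).

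The high Kit level of Vav-SB tumour 7 ran along the gene. There 21 of 22 probe sets were the highest of the Vav-SB tumours, 16 were the highest of all 14, and 18 exceeded the mean of the other 6 by more than 1, with a median of 1.53 and a range from -0.066 to 2.51. In CD4-SB tumour 6, 21 of 22 probe sets were likewise the highest of their model. None of the 22 probe sets passed between the models, and 0 had an unadjusted p under 0.05 in limma. Mast cells also carry KIT, and their 6 measured markers averaged 5.59 in Vav-SB tumour 7, against up to 6.15 in the other Vav-SB tumours and 5.70 to 5.93 in CD4-SB tumours. Their part in the Kit level was not tested.

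**Figure D5:**
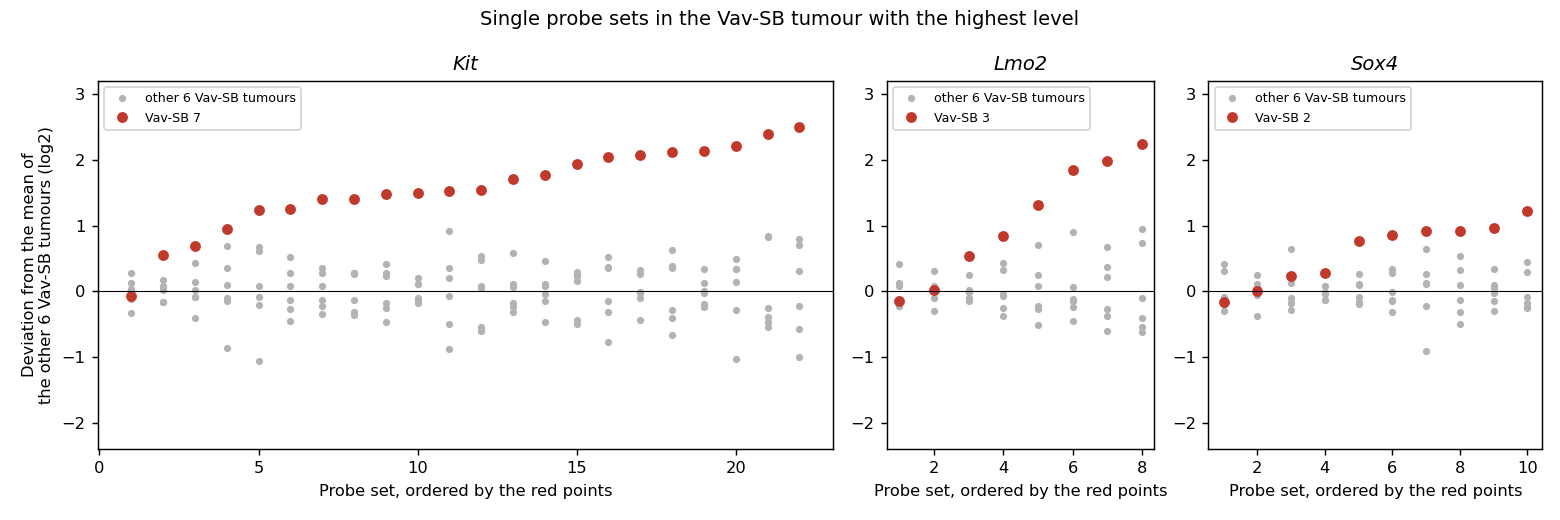
Deviation of single probe sets from the mean of the other 6 Vav-SB tumours on the log2 scale (y axis), for Kit in Vav-SB tumour 7, Lmo2 in tumour 3 and Sox4 in tumour 2 (red), with the other 6 Vav-SB tumours in grey; probe sets are ordered by the red points. For Kit 18 of 22 red points exceed 1, for Lmo2 4 of 8 and for Sox4 1 of 10.

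Of 9 Kit ligand and signalling genes 1 rose, 1 fell and 7 did not pass, with a median difference of -0.038, a share of calls near the 14.5% over all genes. Cbl, a ubiquitin ligase that removes KIT from the surface, rose 1.64-fold (adjusted p = 0.00535). Gab2, an adaptor that links receptors to PI3K, fell 1.76-fold in Vav-SB without overlap (6.95 ± 0.21 against 7.77 ± 0.53, adjusted p = 0.0141). Kitl, the ligand, lay between 5.15 and 5.54 in Vav-SB tumours and between 5.31 and 6.09 in CD4-SB tumours (adjusted p = 0.0628).

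Of 17 partners and relatives of LMO2 and TAL1, 5 rose, 0 fell and 12 did not pass, with a median difference of 0.13. Over all genes 7.28% rose and 7.18% fell. The 7 T-lineage markers moved the same way, averaging 10.90 in Vav-SB and 10.41 in CD4-SB tumours, with 2 higher and 0 lower in Vav-SB. A part of T-lineage content in these differences was not tested. Tcf12, an E protein that pairs with TAL1 and LYL1, lay between 10.79 and 11.33 in Vav-SB tumours and between 9.21 and 9.76 in CD4-SB tumours (3.05-fold, adjusted p = 6.57e-07). Ssbp2, which stabilises LDB1, rose 2.42-fold (8.93 ± 0.62 against 7.66 ± 0.65, adjusted p = 0.0135). Its highest value, 9.72, was that of Vav-SB tumour 3, with Vav-SB tumour 5 close to it at 9.60. Gata3, the GATA factor of T cells, rose 1.73-fold (adjusted p = 0.00843), and at 10.54 it stood apart in Vav-SB tumour 2, the tumour with the highest Sox4. Runx1, a frequent companion of the complex on DNA, rose 1.61-fold (adjusted p = 0.0358). Ldb1 itself, between 9.78 and 10.25 in Vav-SB and between 9.83 and 10.36 in CD4-SB tumours, did not pass (adjusted p = 0.499), nor did Gata1 and Gata2 (adjusted p = 0.24 and 0.934), and Lmo1 ran from 5.60 to 6.41 and from 5.41 to 7.06 (adjusted p = 0.487).

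Of 17 other early progenitor genes measured, 1 rose, 5 fell and 11 did not pass, with a median difference of -0.31; over all genes 7.28% rose and 7.18% fell. The macrophage and monocyte markers moved the same way, with 6 of 11 lower in Vav-SB, and their part in these differences was not tested. The fallen genes included the myeloid factors Spi1 (1.51-fold, adjusted p = 0.0342) and Cebpa (1.26-fold, adjusted p = 0.0388). Ly6a, the stem cell antigen Sca-1 that activated T cells also carry, fell 5.04-fold in Vav-SB (8.11 ± 0.71 against 10.44 ± 1.02, adjusted p = 0.00254). Hlf, a stem cell transcription factor, fell 4.43-fold, with 6.40 to 7.03 in Vav-SB tumours against 6.71 to 10.32 in CD4-SB tumours, of which 4 lay at or above 9.71 (adjusted p = 0.0215). Cd44, an adhesion receptor of progenitors and activated cells, fell 2.05-fold (adjusted p = 0.0238). Igf2bp3, a fetal RNA-binding protein, rose 3.68-fold (7.81 ± 0.99 against 5.93 ± 0.43, adjusted p = 0.00423), with Vav-SB tumour 3 lowest of its model at 6.13.

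Of the 10 genes, 3 had a tumour apart on the high side by Dixon's ratio of gap to range: Hhex in Vav-SB tumour 3, Kit in Vav-SB tumour 7 and Sox4 in Vav-SB tumour 2. Over all genes 10.2% have such a tumour in either model (for Vav-SB alone 4.87%, for CD4-SB alone 5.69%). A Vav-SB tumour apart on the low side was found for 0 of the 10 genes and for 3.37% of all genes. The tumours differ, so no single Vav-SB tumour carried all 3. Genes with the most similar deviations from the model mean over 14 tumours are given as a description, each the highest of all genes. For Lmo2 it was Abcb4 (Pearson r = 0.92), for Lyl1 Defb8 (0.87), for Tal1 Mybph (0.90), for Hhex Trio (0.92), for Hoxa9 Ccna1 (0.91) and for Hoxa10 Nxt1 (0.87). For Meis1 it was the interferon-induced Ifit1 (0.89), with Rsad2, another such gene, in the third place (0.84). For Kit they were Hopx (0.86), Rasgrp3 (0.86) and Klhl2 (0.85), and for Sox4 Slc25a25 (0.93), Gid8 (0.89) and C030006K11Rik (0.87).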

How the data were processed

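RNA of 14 thymic lymphomas was read on exon arrays, 1 array per tumour, after amplification from a small input per the labels' protocols. The deposited values are log2 values per probe set, made by the authors with RMA and Partek per the submitters' processing notes; no version, probe set filter or base of the logarithm is stated there, and the range of 2.03 to 14.03 was read as log2. Depth has no counterpart here, and the 7 arrays per model limit the precision. Of 194293 probe sets 179496 had 1 gene symbol, 1328 several and 13469 none there; symbols were updated through RefSeq GRCm38.p6. Pairs of tumours correlated at 0.877 to 0.968, and 0 held the same values.

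Groups came from the strain label, and replicate numbers from accession order. Gene levels (means over probe sets) and single probe sets were fitted over all genes or probe sets with limma 3.58.1 in R 4.3.3 (lmFit, eBayes), Vav-SB minus CD4-SB, with Benjamini-Hochberg adjustment over all of them and a threshold of 0.05. On simulated data with 200 of 15803 genes changed, the gene test recovered 54% of differences of 0.5, 88% of 1 and 100% of 2 and 4. A tumour stands apart where Dixon's ratio exceeds 0.568. The 10 genes, the lists and the tests were chosen with earlier results of these data known. Named are the 10 genes, up to 4 genes past the threshold per list and genes with a tumour apart where one of the 10 has it too. Up to 3 genes of most similar pattern are named per member, for most members only the first. Others were named after their values were seen. Alternatives changed the summary over probe sets, normalization, filters, prior, weights, the shared title numbers, marker covariates and the tumours included.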

Additional observations from a re-analysis of the deposited data

Results flagged for a closer look

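Single tumours lay further from their model than Dixon's ratio allows at the 95% level, which by chance flags about 1 in 20 groups. On the low side, Lmo2 in CD4-SB tumour 7 was at 7.67. On the high side, Hhex was at 7.27 in Vav-SB tumour 3, Kit at 8.14 in Vav-SB tumour 7 and Sox4 at 8.50 in Vav-SB tumour 2. Among the related genes named above, which come from lists of 81 measured genes, Cd34 at 7.75, Cebpa at 8.94 and Stat5b at 10.66 stood apart in Vav-SB tumour 3. Gata3 at 10.54 did so in Vav-SB tumour 2, and Igf2bp3 at 6.85 in CD4-SB tumour 7, where the other 6 CD4-SB tumours lay between 5.54 and 5.96.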

How the results depend on the processing

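The number of the 10 genes past the threshold, 2 as reported, was 4 with array weights and 2 to 5 with a tumour left out. It was 1 with the markers of 5 other cell types as a covariate. With macrophage and monocyte, B-lineage or stromal markers alone it was 0, 2 and 1. The marker lists used singly were chosen as covariates after seeing the data. Over all genes 2284 passed, 501 with the 5 cell types' markers, 132, 1146 and 559 with macrophage and monocyte, B-lineage or stromal markers alone, and 1628 to 2518 with a tumour left out. Of the 108 probe sets 20 passed, and 14 to 23 with a tumour left out. Genes with a tumour apart on the high side numbered 3, against 2 (Kit and Sox4) from a median over probe sets and 1 (Kit) from bright probe sets. Differences that did not pass changed sign in some settings; the cause was not tested. With the 5 cell types' markers they were 0.086 for Lmo2, 0.21 for Lyl1, -0.019 for Tal1, 0.30 for Hhex, 0.023 for Mef2c, -0.10 for Hoxa10 and 0.46 for Kit. With macrophage and monocyte markers alone they were 0.33 for Lmo2, 0.25 for Lyl1, 0.37 for Hhex, -0.0057 for Hoxa9, -0.029 for Hoxa10 and 0.14 for Kit. With B-lineage markers Lyl1 was at 0.10, Hoxa10 at -0.054 and Kit at 0.23, with stromal markers Lyl1 at 0.12, with a median over probe sets Hoxa10 at -0.089, and with a tumour left out Lyl1 ran from -0.15 (without Vav-SB 3) to 0.0016 (without Vav-SB 2). Sox4 and Meis1 kept their direction in every setting run. Hhex had no bright probe set, and with genes above the median level 5 of the 10 genes were tested. No paired analysis was possible because replicate numbers came from accession order and the models share no title number. The title numbers as a random block gave a consensus correlation of -0.16.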
